A study of Rattus norvegicus with 8 samples.

Results

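The AP-1 and immediate-early transcription factors described here are *Fos*, *Fosb*, *Fosl1*, *Fosl2*, *Jun*, *Junb*, *Jund*, *Egr1*, *Atf3* and *Myc*. They were chosen by name, as the rat probes whose gene name on the array equals one of these symbols, which gave 15 of 45598 probes and 10 of 34912 gene names. Gene expression was measured in primary osteoblast-like cells from the calvariae of Wistar rats aged 3 to 5 days, a mixed culture enriched in bone-forming cells that lacks the setting of living bone. Non-irradiated cells (n = 4 arrays) were compared with cells collected 6 h after Er:YAG laser light had been applied for 60 s at a fluence of 3.3 J/cm2 (n = 4 arrays). Both groups were the same kind of culture, with no genotype named in the labels, and carry replicate numbers 1 to 4. For its qPCR cells the paper describes irradiation without medium, followed at once by osteoinduction medium holding serum, ascorbic acid, β-glycerophosphate and dexamethasone. Its array methods name no medium. Each array received Cy3-labeled RNA prepared from 200 ng of total RNA. The labels do not say whether replicates of a group came from separate animals, although file names number them by animal, so p-values measure the spread between these samples, which may be technical.

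AP-1 is a dimer of a Jun protein with a Fos, ATF or second Jun protein, which binds short DNA elements in the promoters and enhancers of many genes. Immediate-early genes such as *Fos*, *Egr1* and *Myc* are switched on within minutes by growth factors, mechanical load, heat and other stress, largely through MAP kinases, and most of their transcripts are short-lived. In bone, Fos proteins are known for their part in osteoclast and osteoblast development, with *Fosl1* and *Fosl2* acting in matrix-forming osteoblasts.

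Of the 10 genes, 0 had an adjusted p below 0.05 in limma, fitted with the replicate number as a block, where 0 of 26399 probes (0%) did. At an unadjusted p below 0.05 the count was again 0 of 10 genes, against 670 of 26399 probes (2.54%), of which 374 were higher and 296 lower in irradiated cells. With arrays scaled to their 75th percentile instead of quantile normalized, 426 probes were higher and 161 lower at that level, and the members' count was 0 as well. Without replicate 2 the balance turned, with 642 higher and 768 lower, and 1 member, *Fosl1*, was at that level. Among probes well above background on all 8 arrays, 230 were higher and 222 lower. All 15 probes were well above background on 8 of 8 arrays, and for all 15 the values of the groups overlapped. On the probe with the highest mean signal of each gene, 5 genes had a positive and 5 a negative log2 fold change. Their median log2 fold change was -0.0015, against -0.0034 over all probes tested.

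*Fos*, the founding member of its family, had a normalized log2 signal of 6.997, 6.98, 7.12 and 6.72 in non-irradiated replicates 1 to 4 and of 6.82, 6.80, 7.07 and 6.69 in irradiated replicates 1 to 4. Replicate 3 was the highest and replicate 4 the lowest in both groups, and the ranges of the groups overlapped almost entirely. Irradiated arrays were nevertheless lower in 4 of 4 pairs, by -0.18, -0.18, -0.06 and -0.02 on the log2 scale. An exact sign-flip test over the 4 pair differences gave p = 0.125 (exact, two-sided), which no 4 pairs can go below, and on the probe with the highest mean signal *Fos* was the 1 gene of the 10 with the same direction in 4 of 4 pairs. In limma the log2 fold change was -0.11 (standard error, SE, 0.11, 95% CI -0.37 to 0.16, limma adjusted p = 1.00), and it was -0.04 without replicates 1 and 2. The *Fos* probe was present in 2 spots per array, whose log2 values lay up to 0.15 apart on an array. The *Fos* probe lies on chromosome 6 of the array's genome build, rn4, from 109561941 to 109562000.

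*Fosb*, a close relative of *Fos* with a strong transactivation domain, had a log2 signal of 5.16, 5.92, 5.84 and 5.26 in non-irradiated replicates 1 to 4 and of 5.68, 4.68, 5.94 and 5.51 in irradiated replicates 1 to 4. Irradiated replicate 2 was the lowest array of the 8, while irradiated cells were higher in the other 3 pairs. The difference in pair 2, -1.24, was the largest in size among the 40 pair differences of the 10 genes. The log2 fold change of *Fosb* was -0.09 (SE 0.30, limma adjusted p = 1.00), and without replicate 2 it was 0.29.

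*Fosl1*, which encodes the Fos-related protein FRA1, had a log2 signal of 10.56, 9.87, 9.56 and 10.24 in non-irradiated replicates 1 to 4. In irradiated replicates 1 to 4 it was 11.23, 9.86, 9.80 and 10.64. Replicates 1 and 4 were high and replicates 2 and 3 low in both groups, so the groups overlapped although irradiated arrays were higher in 3 of 4 pairs. The pair differences were 0.67, -0.02, 0.23 and 0.41. The log2 fold change, 0.32 (SE 0.15, 95% CI -0.03 to 0.68, limma adjusted p = 1.00), was the largest of the 10 genes. It stayed positive, between 0.21 and 0.44, in each of the 14 alternative analyses. Without replicate 2 its unadjusted p was below 0.05, so that the side of that threshold depended on a single pair.

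*Fosl2*, which encodes FRA2, was measured by 3 probes that differed in direction. The probe with the highest mean signal, A_44_P1152997, had a log2 signal of 7.96, 7.22, 7.39 and 6.96 in non-irradiated and of 7.02, 7.35, 7.25 and 6.90 in irradiated replicates 1 to 4. Non-irradiated replicate 1 stood above the other 7 arrays, and the log2 fold change of -0.25 (SE 0.20) came mostly from pair 1, which differed by -0.94, and was -0.03 without replicate 1. The remaining *Fosl2* probes, A_44_P1082224 and A_64_P065063, carry the same 60 bases under separate names. The sequences of the 3 probes are shown because their readings differed although they were designed to the same *Fosl2* transcript, at its bases 535 (first line) and 731 (the other lines). The array gives no rn4 position for them.

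A_44_P1152997: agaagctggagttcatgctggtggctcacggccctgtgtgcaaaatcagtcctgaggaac
A_44_P1082224: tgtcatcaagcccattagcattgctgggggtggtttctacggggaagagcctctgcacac
A_64_P065063: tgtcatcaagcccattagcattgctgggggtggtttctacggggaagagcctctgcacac

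The probes of identical sequence differed on the same array by 0.16 at the median and by up to 0.51, in irradiated replicate 3. A_44_P1082224 was higher in irradiated cells in 4 of 4 pairs (log2 fold change 0.29, SE 0.15), with 0.74 in pair 3 and between 0.13 and 0.15 in the other pairs. Its value was 0.14 without replicate 3 and 0.0098 with the deposited values. A_64_P065063 gave 0.11 (SE 0.14), higher in 3 of 4 pairs, and 0.0066 without replicate 2. Over the 8 arrays the identical probes correlated at r = 0.58, and A_44_P1152997 correlated with them at r = 0.11 and r = 0.26 (n = 8 arrays of 4 pairs, given as a description). The readings of *Fosl2* thus differed between spots of 1 sequence by as much as they did between groups, and no direction can be given for this gene.

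**Figure D1:**
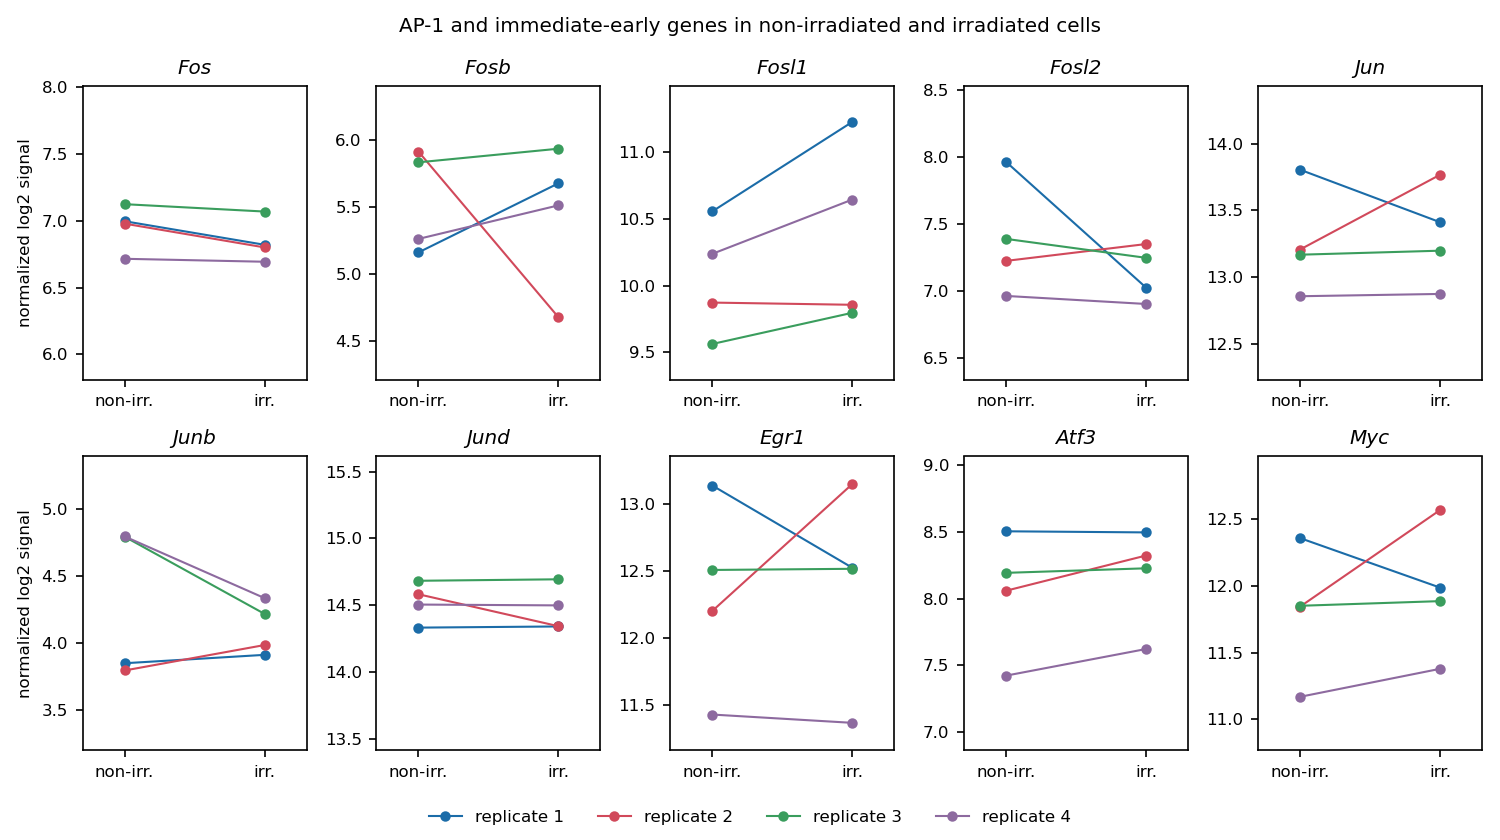
Normalized log2 signal of the 10 genes (vertical axes, each spanning 2.2 log2 units) in non-irradiated and irradiated cells, on the probe with the highest mean signal of each gene. Points are arrays, n = 4 per group, and lines join arrays of the same replicate number. Lines run up and down within most genes, *Fos* is lower in 4 of 4 pairs, and the arrays of replicate 4 are the lowest for *Jun*, *Egr1*, *Atf3* and *Myc*.

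Of the Jun family, *Jun* encodes the core partner that can dimerize with Fos and ATF proteins as well as with itself. Its log2 signal was 13.80, 13.21, 13.17 and 12.86 in non-irradiated replicates 1 to 4 and 13.41, 13.77, 13.20 and 12.87 in irradiated replicates 1 to 4. Non-irradiated replicate 1 and irradiated replicate 2 were high, both arrays of replicate 4 were low, and the groups overlapped. Pairs 1 and 2 went opposite ways, by -0.39 and 0.56, and pairs 3 and 4 differed by 0.03 and 0.02. For *Jun* the groups differed by 0.05 (SE 0.17, 95% CI -0.37 to 0.48, limma adjusted p = 1.00). This probe, A_42_P741027, was printed in 10 spots, with an SD between spots of 0.03 to 0.05 on an array. The second *Jun* probe, A_64_P053353, correlated with it at r = 0.92 over the 8 arrays and had a log2 fold change of -0.17 (SE 0.15), which lay between -0.33 (without replicate 2) and -0.10 (without replicate 4) with single replicates left out. With both *Jun* probes averaged, the log2 fold change was -0.06.

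*Junb*, whose product is a weaker activator that often counters *Jun*, was measured close to the detection limit. Its log2 signal was 3.85, 3.79, 4.80 and 4.80 in non-irradiated and 3.91, 3.99, 4.22 and 4.34 in irradiated replicates 1 to 4, where the lowest signal called well above background was between 3.29 and 4.04 on the 8 arrays. The non-irradiated arrays of replicates 3 and 4 were the highest, and the 2 arrays with the lowest values were non-irradiated as well. *Junb* was higher in irradiated cells in pairs 1 and 2 and lower, by -0.58 and -0.46, in pairs 3 and 4. For *Junb* the groups differed by -0.20 (SE 0.17, limma adjusted p = 1.00). With single replicates left out the value lay between -0.33 (without replicate 2) and -0.07 (without replicate 3), and it was -0.06 with normexp background correction.

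*Jund*, the Jun family gene known for steady expression in resting cells, varied least between replicate numbers when each gene was read on its brightest probe. The means of the 2 arrays of a number were between 14.34 and 14.69, a range of 0.35, against 0.39 for *Fos*. On a second *Jund* probe the range was 0.45. For the brightest probe the mean log2 signal was 14.53 ± 0.15 (SD, n = 4) without irradiation and 14.47 ± 0.17 (SD, n = 4) after it. Pair 2 differed by -0.24, and the other 3 pairs by 0.01 at most in either direction. For *Jund* the groups differed by -0.06 (SE 0.11, 95% CI -0.33 to 0.22, limma adjusted p = 1.00). The second *Jund* probe gave -0.09 (SE 0.16) and correlated with the brightest at r = 0.32 over the 8 arrays. The brightest probe turned to 0.0045 without replicate 2, and the second to 0.06 without replicate 1.

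Of the 45 pairs of genes, *Fosl1* and *Jund* had the most negative correlation over the 8 arrays, r = -0.67 (n = 8 arrays, which share replicate numbers and 1 slide). This holds for the brightest *Jund* probe, which correlated with the second *Jund* probe at only r = 0.32. *Fosl1* was highest in irradiated replicate 1 and lowest in non-irradiated replicate 3, and *Jund* was lowest in non-irradiated replicate 1 and highest in irradiated replicate 3. Promoters of 6 of the 10 genes were in the RefSeq table used, and those of these 2 genes are shown as the 250 bases before the start of the gene, in build GRCr8. Capitals mark TGACG, the core bound by CREB, ATF and Jun dimers, on either strand, and the full element TGACGTCA, which contains this core on both strands. The *Fosl1* promoter is chr1:212183635-212183884 on the plus strand and the *Jund* promoter chr16:18769772-18770021 on the minus strand.

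Fosl1: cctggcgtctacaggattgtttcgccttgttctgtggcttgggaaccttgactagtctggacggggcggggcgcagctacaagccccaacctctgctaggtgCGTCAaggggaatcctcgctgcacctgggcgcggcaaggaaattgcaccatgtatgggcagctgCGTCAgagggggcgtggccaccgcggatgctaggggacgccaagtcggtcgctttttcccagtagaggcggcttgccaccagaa
Jund: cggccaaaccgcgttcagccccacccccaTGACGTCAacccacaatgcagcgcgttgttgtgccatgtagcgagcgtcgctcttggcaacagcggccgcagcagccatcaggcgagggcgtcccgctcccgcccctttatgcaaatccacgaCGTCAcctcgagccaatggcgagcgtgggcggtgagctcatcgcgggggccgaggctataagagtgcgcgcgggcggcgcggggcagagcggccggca

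TGACGTCA was found 221 bases before the start of *Jund*, in 1 of the 6 promoters and in 1.59% of all 33469 promoters of this length. TGACG was found in 4 of the 6, those of *Fosl1*, *Junb*, *Jund* and *Egr1*, and in 18.2% of all promoters. In *Fosl1* it lies 148 and 84 bases before the start, in *Jund* also 98 bases before it. TGACTCA, the classical AP-1 element, and TGACATCA, a longer form of it, were found in 0 of the 6, and in 4.05% and 3.8% of all promoters. The CArG box, the element of serum response factor, was found in *Egr1* alone of the 6, and in 1.5% of all promoters. These matches describe the letters and show no binding.

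*Egr1* encodes a zinc finger factor that is induced together with *Fos* through serum response elements. Its log2 signal was 13.14, 12.20, 12.51 and 11.43 in non-irradiated replicates 1 to 4 and 12.53, 13.15, 12.52 and 11.36 in irradiated replicates 1 to 4. Non-irradiated replicate 1 and irradiated replicate 2 were again the highest arrays and both arrays of replicate 4 the lowest. Pair 1 differed by -0.62 and pair 2 by 0.95, while pairs 3 and 4 differed by 0.01 and -0.06. The log2 fold change of 0.07 (SE 0.25, 95% CI -0.55 to 0.69, limma adjusted p = 1.00) is the balance of these opposite differences, and without replicate 2 it was -0.22. The spots of this probe, 2 per array, lay up to 0.17 apart. A second *Egr1* probe, A_64_P082693, did not share this pattern. It lies on the same chromosome, 18, at 27346058 to 27346117 of rn4, upstream of the other at 27347173 to 27347232, and its pair differences were 0.49, -0.45, 0.02 and -0.09. The *Egr1* probes correlated at r = 0.16 over the 8 arrays, and what sets them apart was not tested.

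*Atf3*, a stress-induced factor of the ATF family that dimerizes with Jun proteins, had a log2 signal of 8.50, 8.06, 8.19 and 7.42 in non-irradiated replicates 1 to 4. In irradiated replicates 1 to 4 it was 8.50, 8.32, 8.23 and 7.62. Both arrays of replicate 1 were high and both of replicate 4 low, and the groups overlapped. Irradiated arrays were higher in 3 of 4 pairs, by 0.26, 0.03 and 0.20 in pairs 2, 3 and 4. For *Atf3* the groups differed by 0.12 (SE 0.11, 95% CI -0.16 to 0.40, limma adjusted p = 1.00), and by 0.07 without replicate 2.

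*Myc*, which encodes a regulator of cell growth, had a log2 signal of 12.36, 11.84, 11.85 and 11.17 in non-irradiated replicates 1 to 4. In irradiated replicates 1 to 4 it was 11.99, 12.57, 11.89 and 11.38. Irradiated replicate 2 was the highest array, followed by non-irradiated replicate 1, and both arrays of replicate 4 were the lowest. Pair differences were -0.37, 0.72, 0.03 and 0.21. For *Myc* the groups differed by 0.15 (SE 0.19, 95% CI -0.32 to 0.62, limma adjusted p = 1.00). The value turned to -0.04 without replicate 2 and was 0.32 without replicate 1.

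**Figure D2:**
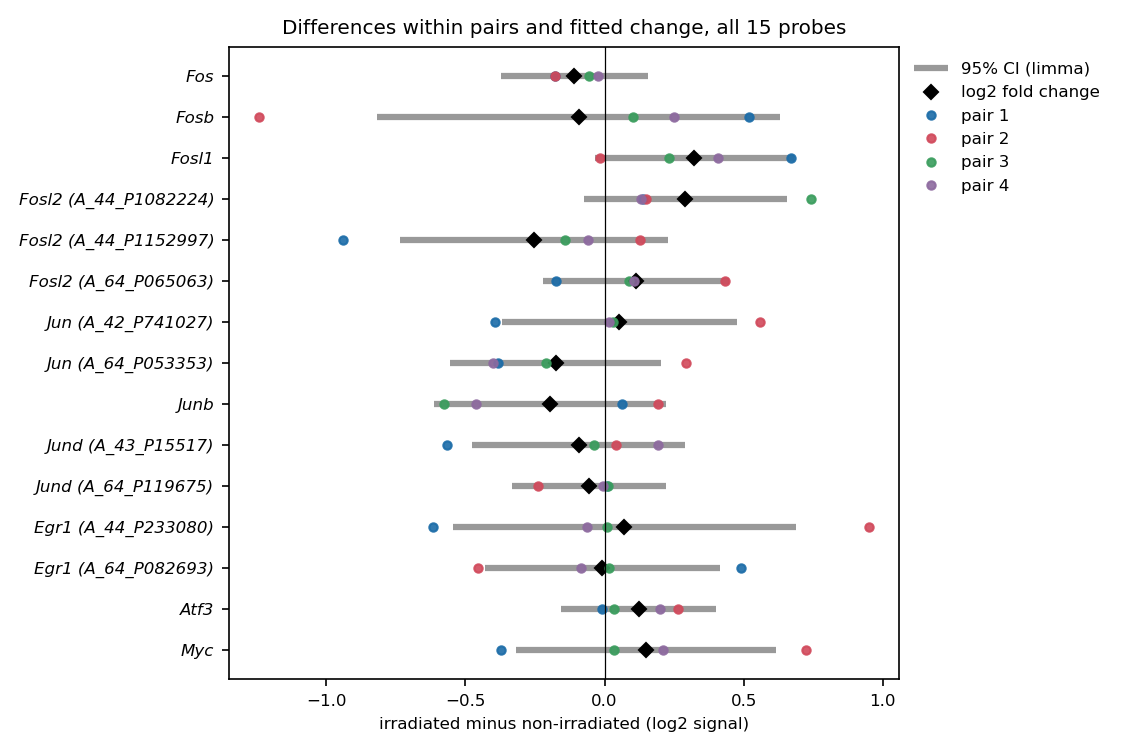
Difference in log2 signal between the irradiated and the non-irradiated array of each pair (colored points, 4 pairs) for the 15 probes of the 10 genes, with the fitted log2 fold change (diamond) and its 95% CI from limma (bar). All 15 intervals include 0, and pairs 1 and 2 lie on opposite sides of 0 for *Jun*, *Egr1* and *Myc*.

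*Jun*, *Egr1*, *Myc* and *Atf3* varied together over the 8 arrays, each read on its brightest probe. Their 6 pairwise correlations were between r = 0.85 (*Atf3* with *Jun*) and r = 0.97 (*Egr1* with *Myc*), over n = 8 arrays that share 4 replicate numbers and 1 slide. *Junb* ran against them, at r = -0.66 with *Jun* and -0.65 with *Myc*, and *Fosl1* was nearly unrelated to them, between r = -0.15 and 0.09. For *Jun*, *Egr1* and *Myc* the highest 2 arrays were non-irradiated replicate 1 and irradiated replicate 2, and for *Atf3* they were the arrays of replicate 1. Such a pattern was common on the array. Of 13290 named genes, 1847 (13.9%) correlated with *Egr1* above r = 0.8, as did 3 of the 9 other members. Of the 35 other immediate-early genes measured, 7 did (20%), namely *Egr2*, *Nr4a1*, *Klf4*, *Klf6*, *Plk2*, *Per1* and *Id2*. These correlations were computed after the pattern had been seen.

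**Figure D3:**
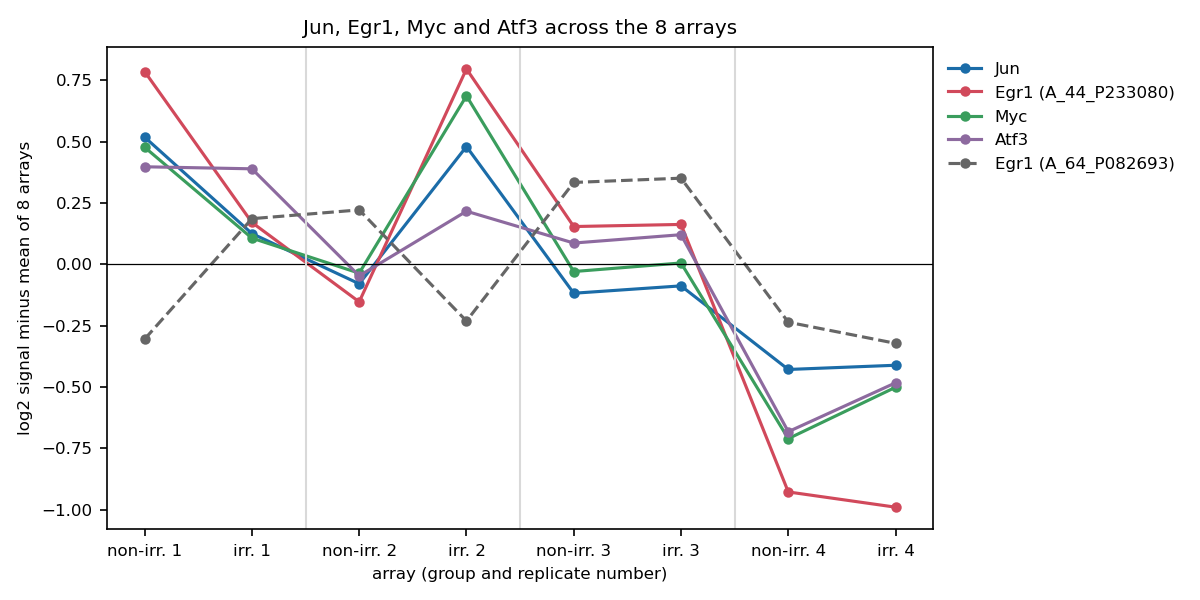
Log2 signal of *Jun*, *Egr1*, *Myc* and *Atf3* on each array, as the difference from the mean of the 8 arrays (vertical axis), with arrays ordered by replicate number (horizontal axis). Solid lines are the probe with the highest mean signal and the dashed line is the second *Egr1* probe. *Egr1* was 0.79 above its mean in non-irradiated replicate 1, 0.80 above it in irradiated replicate 2 and -0.99 from it in irradiated replicate 4, and the second probe does not follow.

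The same opposition of pairs 1 and 2 was seen over the array as a whole. The median difference of all probes tested was -0.06, 0.09, -0.01 and 0.0014 in pairs 1 to 4. For the 10 genes the medians were -0.09, 0.16, 0.02 and 0.0055, with 4, 6, 7 and 5 genes higher in irradiated cells. Non-irradiated replicate 1 and irradiated replicate 2 also resembled each other over 26250 probes, with deviations from the group means that correlated at 0.44, against 0.05 for the arrays of replicate 2. Non-irradiated replicate 1 was still more like irradiated replicate 1, at 0.61. All arrays of replicates 1 and 2 lay in the upper row of the slide, where non-irradiated replicate 2 and irradiated replicate 1 correlated at -0.25. In that row, non-irradiated replicate 1 and irradiated replicate 2 were in columns 1 and 4. Whether position on the slide, the culture or its RNA goes with the likeness of these 2 arrays was not tested.

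The means of the 4 replicate numbers spanned a median of 0.71 for the 10 genes, against 0.56 over all probes, and at most 1.44, for *Egr1*. This range exceeded the log2 fold change in size for 10 of 10 genes and for 97.2% of all probes, and a range over 4 means is larger than a single difference for most probes by its making. In a moderated F test among replicate numbers, 0 of the 10 genes had an adjusted p below 0.05, where 872 of 26399 probes did (3.30%). That number of probes was 0, 5537, 111 and 104 without replicates 1, 2, 3 and 4 in turn. Closest among the 10 genes were *Fosl1* (range 1.21, limma adjusted p = 0.0703) and *Atf3* (range 0.98, limma adjusted p = 0.0766). Both were below 0.05 with normexp background correction, and *Fosl1*, *Egr1*, *Atf3* and *Myc* were without replicate 2. Both arrays of a number lay in the same row of the slide, so replicate number and row partly overlap.

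*Fosl1* was high in replicates 1 and 4, with means of 10.89 and 10.44 against 9.87 and 9.68 in replicates 2 and 3. Some genes of the other lists, picked after their values were seen, were high in replicate 1 too. *Dusp6*, a phosphatase that inactivates ERK, had replicate means of 13.96, 12.65, 12.37 and 12.23 for numbers 1 to 4 (F test, limma adjusted p = 0.0328). *Spry4*, another feedback inhibitor of the pathway, had means of 9.24, 7.87, 7.34 and 7.58 (limma adjusted p = 0.0176). The immediate-early genes *Arc* and *Nr4a3*, with means of 7.41 and 6.80 in replicate 1, were between 5.59 and 6.11 and between 4.91 and 5.32 in the others. *Vegfa*, an AP-1 target, was at 12.15 in replicate 1 and between 10.77 and 10.84 in the others. *Arc*, *Nr4a3*, *Dusp6* and *Spry4* are the genes of the immediate-early and feedback lists with an adjusted p below 0.05 among replicate numbers. They are 2 of 35 and 2 of 19 genes, where 3.30% of all probes were called. *Vegfa* is 1 of the 4 AP-1 targets called, of 19. The other AP-1 targets called stood apart in replicate 4. *Ccl2* was highest there, at 10.22 against 8.34 in replicate 1. *Alpl* was at 8.51 in replicate 4 and between 10.32 and 10.74 in the others, and *Bglap* at 6.85 and between 8.02 and 8.81. The highest replicate mean was that of replicate 1 for 12 of 19 feedback inhibitors, 20 of 35 immediate-early genes and 5 of the 10 members, and for 35.2% of 13291 named genes. In the same lists replicate 4 had the lowest mean for 13, 19 and 6 genes, and for 34.6% of named genes. Replicate 1 was highest for 3 of 13 genes of the *Myc* network and 6 of 19 *Myc* targets. Of the 19 AP-1 targets, 8 were highest in replicate 1 and 8 in replicate 4. Among feedback inhibitors and immediate-early genes highest elsewhere were *Dusp5*, *Dusp4* and *Egr3*, all in replicate 2. These counts were made after the values had been seen, and genes of a list are not independent. Without replicate 1, 0 probes were called in the F test, so the calls above were lost, and without replicate 2, 5537 probes were called.

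Some markers of other cell types also differed between replicate 1 and the others. Of 5 cartilage markers tested, of 7 in the list, 3 differed among replicate numbers, where 872 of all probes (3.30%) did. That number of probes was 0 without replicate 1 and 5537 without replicate 2. Of the 5 markers, 4 were lowest in replicate 1 and 1, *Sox9*, in replicate 4. Their summed signal was 4424.6 and 3779.5 in non-irradiated and irradiated replicate 1 and between 76178.2 and 162075.5 on the other 6 arrays. The *Col9a1* probe had the highest mean log2 signal of the 5 over the 8 arrays, which does not rank the genes by abundance. *Col10a1* and *Matn3* were not well above background by the filter used. Of 7 muscle markers tested, of 8, 2 differed, 5 were highest in replicate 1, and *Des* and *Acta1* were highest in replicates 2 and 3. The summed signal of the 7 was 3525.7 and 2757.3 in replicate 1 and between 417.6 and 1035.3 on the others. The *Myh3* probe had the highest mean log2 signal of the 7, and *Myod1* was left out by the filter. Fewer cells of a type and less RNA per cell cannot be told apart in such cultures. Over the 8 arrays *Fosl1* correlated with the 5 cartilage markers at a median r of -0.83 (n = 8, as a description). Whether cell makeup goes with the levels of *Fosl1* was not tested. Osteoblast markers were measured on all arrays, 9 of 10 passing the filter, with *Col1a1* at 18.21 ± 0.07 (SD, n = 4) without irradiation and 18.13 ± 0.15 (SD, n = 4) after it. Not all of them were as steady. The replicate means of *Col1a1* spanned 0.23, and those of *Alpl*, *Bglap* and *Ibsp* 2.23, 1.96 and 1.67. *Fosl1* correlated with *Sp7* at r = 0.86, and with the 9 osteoblast markers at a median r of 0.24.

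**Figure D4:**
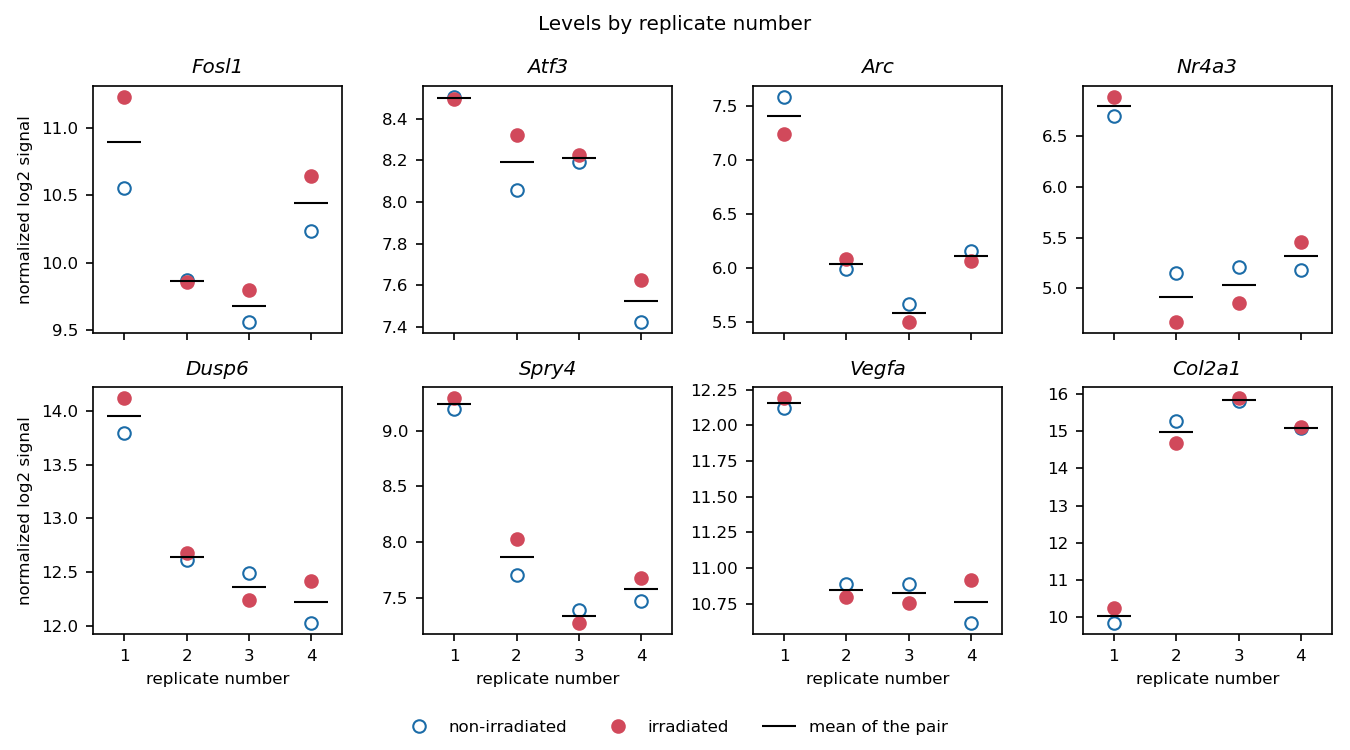
Normalized log2 signal (vertical axes, each with its own range) of *Fosl1*, *Atf3* and other genes by replicate number, in non-irradiated (open) and irradiated (filled) cells, with the mean of each pair as a line (n = 1 array per point). *Fosl1*, *Arc*, *Nr4a3*, *Dusp6*, *Spry4* and *Vegfa* are highest in replicate 1, where the cartilage gene *Col2a1* is at 10.04 against at least 14.98 in the others.

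Genes of other AP-1 and bZIP factors were read next. Of 21 other AP-1 and bZIP genes measured, 0 were higher and 1 was lower in irradiated cells at an unadjusted limma p below 0.05, with a median log2 fold change of 0.0042, where 2.54% of all probes were below that p. The 1 gene was *Mafk*, a small MAF protein that pairs with CNC factors, with a mean of 4.495 ± 0.22 (SD, n = 4) without and of 3.90 ± 0.32 (SD, n = 4) after irradiation. It differed by -0.59 log2 units (SE 0.21, limma adjusted p = 1.00), and it was lower in 3 of 4 pairs. The value was -0.16 with normexp and -0.18 with the deposited values, its unadjusted p was below 0.05 in 7 of 14 alternatives, and the signal of *Mafk* was close to the detection limit. *Batf2* came next, at -0.27 (SE 0.14), and was -0.16 without replicate 3, -0.13 with the deposited values and -0.10 with normexp.

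Of the 35 other immediate-early genes measured, of 36 in the list, 0 were below that level in either direction. Of these, 12 had a positive and 23 a negative log2 fold change, with a median of -0.05. *Ptgs2*, the inducible cyclooxygenase gene, had a log2 fold change of 0.19 (SE 0.14), which was 0.07 without replicate 2 and 0.11 with its probes averaged. *Csrnp1* had -0.16 (SE 0.12), and -0.09 without replicate 2. *Egr4* did not pass the filter.

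Of 29 upstream kinases and factors measured, of 33, 0 were below the unadjusted level in either direction, and the median was -0.01. *Rps6ka1*, the kinase RSK1 downstream of ERK, was higher in 4 of 4 pairs with a log2 fold change of 0.19 (SE 0.11). *Mapk3*, which encodes ERK1, had 0.25 (SE 0.24) and was -0.05 without replicate 3. Pair 3 of *Mapk3* differed by 1.14, and pairs 1, 2 and 4 by -0.16, 0 and 0.01. Its probe was very bright, with the same log2 signal, 18.68, on both arrays of replicate 2. Whether it reads *Mapk3* alone was not tested.

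Among 19 feedback inhibitors measured, of 20, 1 was higher and 0 lower at an unadjusted limma p below 0.05, against 2.54% of all probes, with a median of -0.03. It was *Dusp5*, a nuclear phosphatase that inactivates ERK, with a log2 signal of 11.36, 11.31, 11.31 and 11.17 in non-irradiated and of 11.62, 11.75, 11.54 and 11.35 in irradiated replicates 1 to 4. Irradiated replicate 4 lay within the non-irradiated range and the other 3 irradiated arrays above it. The log2 fold change of *Dusp5* was 0.28 (SE 0.11, limma adjusted p = 1.00), higher in 4 of 4 pairs. Its unadjusted p was below 0.05 in 7 of 14 alternatives, and not with 75th percentile scaling, with any replicate left out or without the block. *Dusp10*, which acts on JNK and p38, was at 0.34 (SE 0.14), also higher in 4 of 4 pairs, but was well above background on 7 of the 8 arrays. It was 0.04 with normexp and 0.05 with the deposited values.

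Of 19 AP-1 targets of bone cells measured, of 24, 13 had a positive and 6 a negative log2 fold change, with a median of 0.09. Of them, 1 was higher and 0 were lower at the unadjusted level (2.54% of all probes), the matrix metalloproteinase gene *Mmp3*, at 0.57 (SE 0.18, limma adjusted p = 1.00). Pair 1 differed by 1.17, and the value was 0.37 without replicate 1 and 0.34 with normexp, with an unadjusted p below 0.05 in 14 of 14 alternatives. *Ccl2* was higher in 4 of 4 pairs by 0.16 (SE 0.11), a difference that is small beside the range of its replicate means, 2.12. *Mmp9*, *Mmp10*, *Il6*, *Plau* and *Tnfsf11* did not pass the filter.

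The partners and targets of *Myc* showed 0 genes at that level in either direction, of 13 measured in its network and 19 targets. The 13 include a probe listed as *Miz1* that the array names *Pias2*, a different gene with that alias, while the MYC partner of that name is *Zbtb17*, also among the 13. The medians were -0.02 and 0.0019. *Mlxip* had the smallest p of the network, with -0.22 (SE 0.20), followed by *Mycl* with -0.15 (SE 0.14). Among targets, *Odc1*, the gene of ornithine decarboxylase, had -0.21 (SE 0.20) and *Nop56*, a gene of ribosome assembly, 0.12 (SE 0.12). Single pairs weighed on these values. Without replicate 2 they were -0.0038 for *Mlxip*, -0.06 for *Odc1*, 0.03 for *Nop56* and -0.22 for *Mycl*. Leaving out replicate 1 gave -0.34 for *Mlxip*, -0.37 for *Odc1* and -0.07 for *Mycl*, and *Odc1* was -0.09 without replicate 3. With its probes averaged *Mycl* turned to 0.06.

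**Figure D5:**
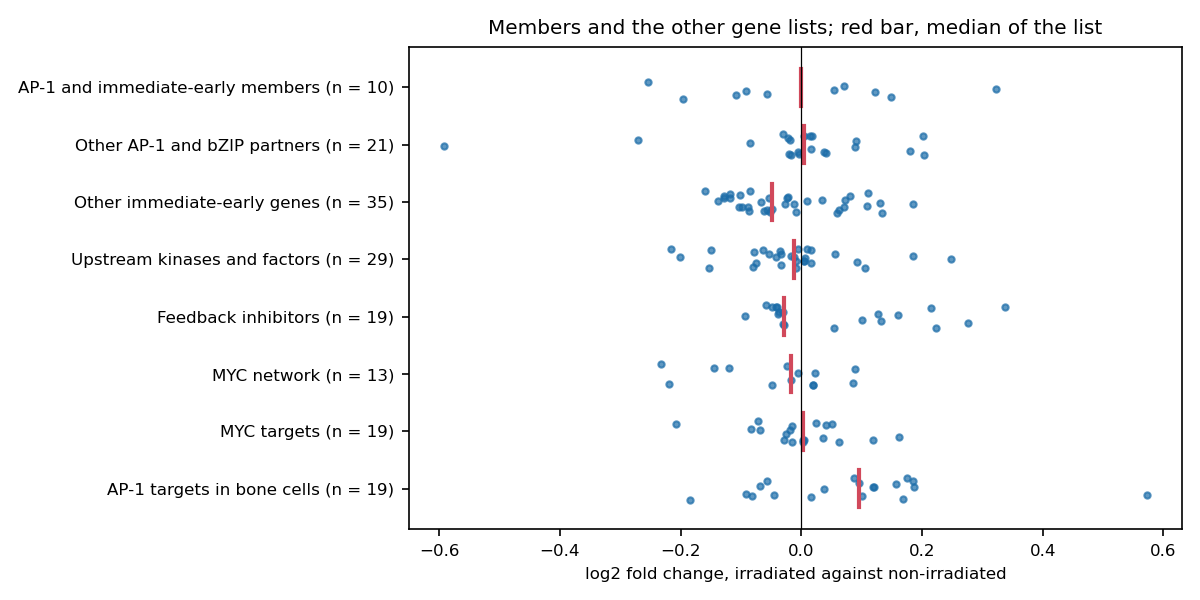
Log2 fold change of the 10 genes and of the genes of 7 other lists (points, 1 probe per gene, spread vertically for legibility), with the median of each list as a red bar. Medians lie between -0.05 and 0.09, and the point furthest to the right is *Mmp3* and the point furthest to the left *Mafk*.

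By likeness to *Fos* over the 8 arrays, the nearest of 13290 other named genes were *Itfg1* (r = 0.96), *Plcd1* (0.93), *Eid1* (0.93), *Rnf144a* (0.92) and *Tspan11* (0.91), given as a description over n = 8 arrays. Among members, *Fosl2* came first at 0.60 and *Atf3* next at 0.55, while *Jun* was at 0.27, *Junb* at -0.05 and *Fosl1* at -0.55. *Fos* thus followed neither *Egr1* (0.53) nor *Myc* (0.37) closely. Of the other immediate-early genes, *Klf2* and *Zfp36* were above r = 0.8 with *Fos*, 2 of 35, where 81 of 13290 genes (0.609%) were.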

How the data were processed

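For every spot the authors deposited an intensity, extracted with Agilent Feature Extraction 11.0.1.1 as a processed signal, together with the mean signal and the median local background. The authors also deposited log2 values, quantile normalized per the study's methods, for 24029 rows named by probe, whose array medians lay between 7.62 and 7.66. Here, log2 processed signals of 58717 rat spots were quantile normalized, outlying spots (446 to 690 per array) left out and spots of a probe averaged. The median processed signal was 56.2 to 84.8, 26543 to 30490 probes per array were well above background, and 0 spots were saturated. The number of arrays limits the precision.

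Probes well above background, in over 50% of their spots, on all 4 arrays of a group were tested (26404, of which 26399 could be fitted). limma 3.58.1 in R 4.3.3 was used, two-sided, with a block for replicate number and p adjusted by Benjamini-Hochberg, and was tested on simulated data. Fold changes are irradiated over non-irradiated. Probes of different sequence or name were not merged, and the brightest on average stands for its gene.

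Within replicate numbers 1 to 4, deviations from the group means correlated at 0.608, 0.0542, 0.571 and 0.749 over 26250 probes. For number 2 each array was more like an array of another number. Non-irradiated replicate 2 correlated with irradiated replicate 3 at 0.303, and irradiated replicate 2 with non-irradiated replicate 1 at 0.439. The block rests on file names, which give both arrays of a number the same animal number. All 8 arrays shared 1 slide and 1 scan, with irradiated samples in columns 2 and 4 and the others in columns 1 and 3, so column and irradiation cannot be told apart.

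The members and lists were chosen with earlier results of these data known. Named are all 10 members, the 2 genes of smallest p in each list and the 5 genes most like *Fos*, and other genes were named after their values were seen. Lists of osteoblast, macrophage, endothelium, muscle, cartilage and heat shock genes were also read. The alternatives were other scaling, background correction, filters, outlying spots, replicates left out, no block, another variance prior, probes averaged and the deposited values. Leaving out replicates 1 and 2 together was added after seeing the data.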

Additional observations from a re-analysis of the deposited data

How the results depend on the processing

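Under each of the 14 alternatives, 0 probes had an adjusted p below 0.05. The 670 probes at an unadjusted p below 0.05 became 252 with normexp, 292 with the deposited values, 1658 with no filter, 384 with a robust, trended prior and 246 when the replicate block was dropped. The fit without the block changed no call for the members in either direction. The count was 392 to 1410 with a replicate left out, and 1678 without replicates 1 and 2, an alternative added after seeing the data. The 872 probes that differed among replicate numbers became 1534 with normexp, 84 with no filter, 1407 with the robust prior, 0 to 5537 with a replicate left out (0 without replicate 1, 5537 without replicate 2, 111 without replicate 3, 104 without replicate 4) and 0 without replicates 1 and 2. Members that differed among replicate numbers, 0 in the reported analysis, were 2 with normexp, 1 with the robust prior and 0 to 4 with a replicate left out. Members at an unadjusted p below 0.05 were 0 to 1 with a replicate left out and 1 (*Junb*) without replicates 1 and 2, the pairs in which it was higher, so that this count follows from the choice of pairs. Without a filter 45593 probes were tested, and leaving out replicates lowers the number of arrays. Causes of other changes were not tested.

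Of 138 values of the 10 genes' brightest probes under the alternatives, 128 kept their direction, and 4 of the 10 genes (*Fos*, *Fosl1*, *Junb* and *Atf3*) kept it in all. With each replicate left out in turn, log2 fold changes ran from -0.296 to 0.290 for *Fosb* (0.290 without replicate 2), -0.115 to 0.202 for *Jun* (-0.115 without replicate 2), -0.0789 to 0.00452 for *Jund* (0.00452 without replicate 2) and -0.188 to 0.0649 for its second probe (0.0649 without replicate 1). They ran from -0.223 to 0.299 for *Egr1* (-0.223 without replicate 2), -0.174 to 0.141 for its second probe (0.141 without replicate 2, 0.0185 without replicate 4), -0.0420 to 0.322 for *Myc* (-0.0420 without replicate 2) and -0.0488 to 0.384 for *Mapk3* (-0.0488 without replicate 3). Without replicates 1 and 2, values turned to 0.177 for *Fosb*, 0.00242 and 0.0772 for the *Jund* probes and -0.0267 for *Egr1*. The second *Egr1* probe turned to 0.0136 with normexp. With probes averaged, *Fosl2* turned to 0.0495, *Jun* to -0.0606 and *Mycl* to 0.0613. The median of the 10 genes stayed between -0.06 and 0.07. *Junb* and the brightest *Fosl2* probe had no value among the deposited rows. Signals near background limit *Junb*.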

Other observations

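Markers of other cells and heat shock genes were read on the same arrays. Of 7 heat shock genes tested, of 8, 0 were below an unadjusted limma p of 0.05 in either direction, with a median log2 fold change of 0.0046. *Hspa1a*, an inducible heat shock gene, had 0.19 (SE 0.16). Medians were 0.02 for 9 osteoblast, 0.04 for 4 macrophage, 0.07 for 5 endothelium, -0.03 for 7 muscle and 0.0045 for 5 cartilage markers, and 0 genes in these lists were below that level. Among replicate numbers, 2 osteoblast, 1 macrophage and 2 endothelium markers had an adjusted p below 0.05 in the limma F test, against 3.30% of all probes, a count that went from 0 to 5537 probes with a replicate left out. Of 9 osteoblast markers, 5 (*Alpl*, *Bglap*, *Ibsp*, *Runx2* and *Dmp1*) had their lowest mean in replicate 4, as did 34.6% of 13291 named genes. *Alpl* and *Bglap* were the 2 called in the F test. *Sparc*, *Spp1* and *Col1a1* had their highest mean in replicate 4. Over the 8 arrays the brightest *Egr1* probe correlated with *Alpl*, *Runx2* and *Bglap* at r = 0.95, 0.88 and 0.88. With *Sparc*, *Spp1* and *Col1a1* it correlated at -0.74, -0.54 and -0.47, and with *Ibsp*, *Dmp1* and *Sp7* at 0.70, 0.47 and -0.30. These values are a description (n = 8), made after the values had been seen. Of 13290 named genes, 13.9% were above r = 0.8 with this probe, and the second *Egr1* probe correlated with it at only r = 0.16.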
